A study of Homo sapiens with 6 samples.

Results

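Kinesins, cytoplasmic dyneins and tubulins, with the stathmins and microtubule-associated proteins that act on the same polymer, were followed in lung cancer cells with and without a short hairpin RNA (shRNA) against Ephexin1. The genes were chosen by symbol alone, and 93 of the 26255 genes in the table matched. The symbol pattern took in 102 names, and 9 of these were dropped because they ended in P and a digit. Of the 93 genes, 79 reached 0.1 FPKM (a fragment count scaled to transcript length and library size) in at least 3 of the 6 libraries and were tested. The other 14, among them the neuronal motor gene KIF1A and the neuronal stathmin gene STMN2, never exceeded 0.137 FPKM, and 7 of them were listed at 0 in every library.

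Microtubules are polymers of alpha and beta tubulin pairs, and they are nucleated from rings that contain gamma tubulin. Most kinesins walk toward the plus end of the polymer, carrying cargo or building the mitotic spindle, whereas cytoplasmic dynein carries cargo toward the minus end. Each tubulin and several motors exist as isotypes from separate genes, and a cell's isotype mix is one of the features that differ between tissues.

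All libraries came from NCI-H1299 cells, an established human lung carcinoma line. The shControl group (n = 3) carried a pSilencer2.1-U6 plasmid with a control shRNA, and the shEphexin1 group (n = 3) carried the same kind of plasmid with an shRNA against Ephexin1, a guanine nucleotide exchange factor encoded by NGEF. Ephexin1 knockdown in these cells was stable, and the 3 libraries of each group share a stem in their names, so each group may be repeats of 1 line. The p-values then measure only the spread between these libraries, and differences between lines cannot be told apart from the shRNA. NGEF was at 13.3, 11.7 and 16.4 FPKM with the control shRNA and 9.81, 8.25 and 10.5 FPKM with the Ephexin1 shRNA, a log2 fold change of -0.53 (SE 0.163, limma adjusted p = 0.103, or 0.00284 with the replicate number as a block). The paper checked its stable knockdown by western blot of the protein, whereas these values are messenger RNA.

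Replicate 2 of both groups stood apart from replicates 1 and 3. Deviations from the group mean correlated with a gene's GC content at a Spearman's rho of -0.795 and -0.866 in replicate 2 and at 0.430 to 0.799 in the other libraries. Same-numbered libraries deviated together, least clearly for replicate 1, and each comparison was therefore also fitted with the replicate number as a block. The defining lung markers NKX2-1 and SCGB1A1 and the epithelial cadherin gene CDH1 were listed at 0 in every library. Vimentin (VIM), an intermediate filament of mesenchymal cells, was at 1979 to 2670 FPKM, and the immune and endothelial lists each summed to less than 0.577 FPKM in every library. The epithelial list summed to 73.9 to 121 FPKM in shControl and to 39.8 to 59.1 FPKM in shEphexin1, and the neuronal and neuroendocrine list to 1.65 to 1.84 and 2.05 to 2.60 FPKM. Their part in the results below was not tested.

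KIF5C was the 1 gene of the 79 that was called. A call needed a limma p no higher than 0.025 after adjustment over the 16020 genes tested, and a 2-fold difference, and 1.89% of all genes tested were called (0.999% lower and 0.893% higher in shEphexin1). KIF5C encodes one of the 3 heavy chains of kinesin-1, the motor that carries vesicles, mitochondria and messenger RNA particles outward along microtubules, and it is best known from neurons. Its partner chains are KIF5B, which most cells use, and KIF5A, which is also mainly neuronal. The first 60 coding bases of the 3 genes, which begin the motor part, are shown because they let a reader see how far the paralogs differ and therefore how well reads can be told apart. They were read from GRCh37 at chr10:32344842-32344901 (minus strand) for KIF5B, chr2:149633187-149633246 (plus strand) for KIF5C and chr12:57944055-57944114 (plus strand) for KIF5A, and capitals mark bases that differ from KIF5B after alignment.
KIF5B: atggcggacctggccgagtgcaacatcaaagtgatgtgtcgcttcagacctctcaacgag
KIF5C: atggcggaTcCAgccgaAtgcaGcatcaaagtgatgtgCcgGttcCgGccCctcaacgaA
KIF5A: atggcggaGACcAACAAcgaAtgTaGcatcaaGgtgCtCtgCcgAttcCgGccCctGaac
KIF5C differed from KIF5B at 11 of these bases and KIF5A at 20. Over whole coding sequences, KIF5B and KIF5C were 68.8% identical, and no window of 50 bases was shared among the 3 genes.

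KIF5C (ENSG00000168280.12, chr2:149632819-149883273, plus strand, GRCh37) was at 4.90, 5.44 and 5.41 FPKM with the control shRNA and 1.73, 1.56 and 1.60 FPKM with the Ephexin1 shRNA. Every shEphexin1 library lay below every shControl library by a wide margin, and replicate 2 did not stand apart for this gene. The level fell to 31.0% of shControl, from 5.25 ± 0.30 to 1.63 ± 0.0911 FPKM (SD, n = 3). The log2 fold change was -1.63 (SE 0.140, limma adjusted p = 0.00173, and 0.000456 with the replicate block). The other tested genes within 5 Mb on chromosome 2 that averaged at least 1 FPKM had a median log2 fold change of 0.05 over 19 genes.

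KIF5B supplied nearly all of the KIF5 message and showed no such difference. It was at 84.1, 108 and 83.2 FPKM with the control shRNA and 86.9, 117 and 84.2 FPKM with the Ephexin1 shRNA, with the replicate 2 libraries highest in both groups. Its log2 fold change was 0.06 (SE 0.167, limma adjusted p = 0.873). KIF5A was at 0.791, 0.900 and 1.23 FPKM with the control shRNA and 1.41, 1.11 and 1.33 FPKM with the Ephexin1 shRNA, groups that overlapped (log2 fold change 0.38, adjusted p = 0.366). KIF5A overlaps DCTN2 on the opposite strand, and whether the counting used strand is not given in the sources used here. Summed over the 3 heavy chains, the level was 98.0 ± 14.2 FPKM (SD, n = 3) with the control and 99.1 ± 18.3 FPKM (SD, n = 3) with the Ephexin1 shRNA. Within that sum the share of KIF5C went from 4.75 to 6.02% in shControl to 1.29 to 1.92% in shEphexin1, and the share of KIF5B from 92.6 to 94.5% to 96.5 to 97.8%.

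The kinesin light chains, which bind cargo adaptors to the heavy chains, did not follow KIF5C. KLC1, the main light chain, was at 85.3, 79.9 and 88.3 FPKM with the control shRNA and 104, 90.2 and 103 FPKM with the Ephexin1 shRNA. The groups did not overlap, but the log2 fold change of 0.23 (SE 0.102) had an adjusted p of 0.239, which became 0.00819 with the replicate block, and it was 0.37 after quantile normalization. KLC2 was at 5.01 to 8.99 and 6.27 to 10.7 FPKM, higher in shEphexin1 in each of the 3 numbered pairs (log2 fold change 0.32, adjusted p = 0.550, or 0.0213 with the block). KLC3 and KLC4 had log2 fold changes of -0.08 and 0.12 (adjusted p = 0.905 and 0.780).

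**Figure D1:**
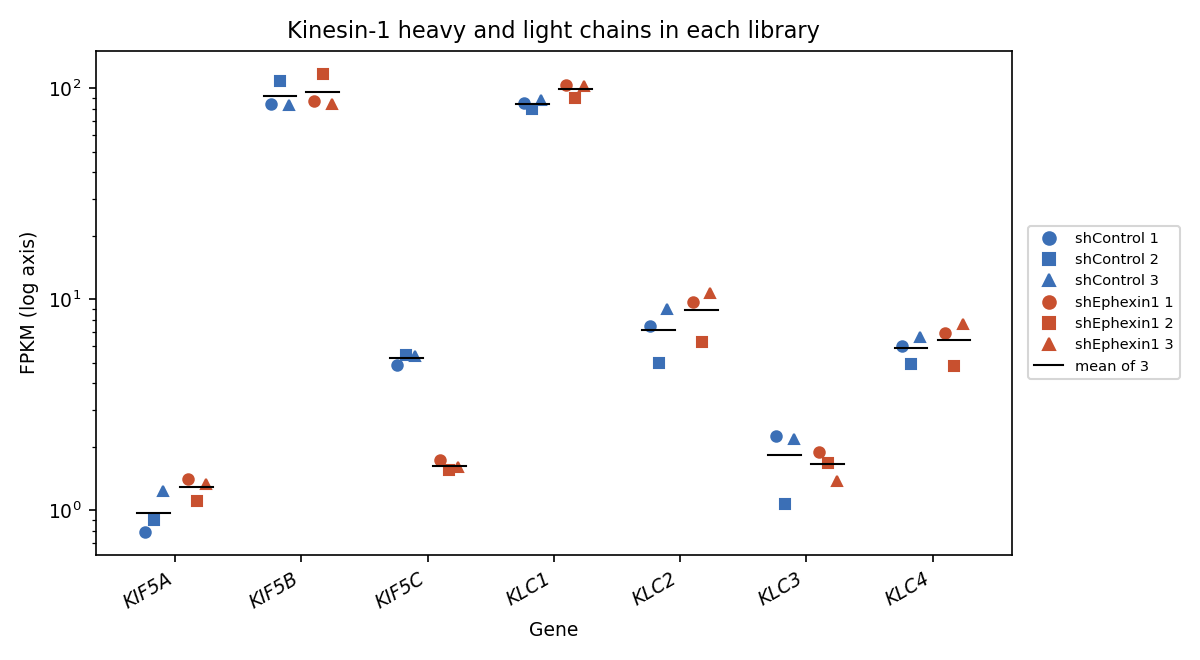
Level (FPKM, log axis) of the 7 kinesin-1 genes in each library; symbols mark the replicate number, colours the group and black lines the mean of 3 libraries. KIF5C is the gene whose groups lie far apart, at 4.90 to 5.44 FPKM in shControl and 1.56 to 1.73 FPKM in shEphexin1, while KIF5B stays at 83.2 to 117 FPKM.

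Over all 79 genes the differences were small. The log2 fold changes ran from -1.63 to 1.50 with a median of -0.13, beside a median of -0.01 over all genes tested, and 47 of 79 (59.5%) were below 0, against 51.1% of all genes. In 27 of 79 genes (34.2%) the groups did not overlap, 18 of them lower and 9 higher in shEphexin1, where 28.3% of all genes tested did not overlap (15.4% lower and 12.8% higher). The 9 higher genes include KIF21B, which passed the filter only through the group where it was higher. With no demand on the fold, 3 of 79 (3.80%) passed a limma adjusted p of 0.025, against 3.41% of all genes (2.15% lower and 1.25% higher). These were KIF5C and MAPRE2, which were lower, and DYNC1H1, which was higher.

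The replicate block raised the number far more. With it 29 of 79 genes (36.7%) passed an adjusted p of 0.025, 22 lower and 7 higher, beside 25.7% of all genes tested (15.7% lower and 10.1% higher). Only KIF5C and KIF26A also passed the 2-fold limit with the block, beside 3.47% of all genes tested (1.54% lower and 1.93% higher). Replicates 1 and 3 alone, without the block, called KIF5C and KIF26A too, where 2.68% of all genes were called (1.22% lower and 1.46% higher). The plot of all tested members by role gives each log2 fold change with its standard error.

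Among the other transport kinesins, the subunits of kinesin-2 parted in sign. KIF3A and KIF3B pair with each other to form the motor of intraflagellar transport in cilia. KIF3B was at 19.9, 19.3 and 21.0 FPKM with the control shRNA and 15.7, 13.8 and 14.6 FPKM with the Ephexin1 shRNA, without overlap (log2 fold change -0.45, SE 0.108, adjusted p = 0.0525, or 0.00325 with the block). KIF3A was at 6.59 to 7.84 and 7.35 to 10.2 FPKM (log2 fold change 0.25, adjusted p = 0.409, or 0.0581 with the block). The difference between the changes of KIF3A and KIF3B was not tested. All 5 tested kinesin-3 genes, which move synaptic vesicle precursors and endosomes, had small log2 fold changes above 0, from 0.03 for KIF13A to 0.25 for KIF16B, and none passed the threshold with or without the block. KIF1C, the best expressed of them at 14.8 to 22.0 FPKM over the 6 libraries, had a log2 fold change of 0.16 (adjusted p = 0.616). KIFAP3, the accessory subunit of kinesin-2, which the symbol rule left out, was at 5.78 to 6.95 and 6.42 to 8.41 FPKM (log2 fold change 0.20, adjusted p = 0.490).

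KIF26A had the largest difference in the upward direction. It encodes an atypical kinesin without motor activity that binds microtubules. It was at 0.712, 0.316 and 1.07 FPKM with the control shRNA and 2.30, 1.24 and 2.67 FPKM with the Ephexin1 shRNA. The lowest shEphexin1 value lay just above the highest shControl value, and replicate 2 was lowest in both groups. The log2 fold change was 1.50 (SE 0.431) with an adjusted p of 0.0851, and it was called with the replicate block (adjusted p = 0.00209). Replicates 1 and 3 alone gave 1.41 (adjusted p = 0.0147). KIF21A, a kinesin that restrains microtubule growth at the cell cortex, was at 23.3, 29.3 and 23.7 against 19.5, 22.5 and 18.3 FPKM (log2 fold change -0.34, adjusted p = 0.199, or 0.00508 with the block). The local level around KIF21A, a median over neighbouring genes described below, was -0.29 over 15 genes. With it subtracted, KIF21A stood at -0.05 (limma adjusted p = 0.541 with the block). The minus-end motor gene KIFC3 was at 23.8, 15.4 and 28.4 against 31.7, 18.8 and 33.3 FPKM, higher in each numbered pair (log2 fold change 0.31, adjusted p = 0.580, or 0.00843 with the block). KIF21B passed the filter through its shEphexin1 libraries alone, with 0.00836 to 0.0375 FPKM in shControl and 0.118 to 0.174 FPKM in shEphexin1, and is given as values only.

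Most kinesins of mitosis had small negative differences. Of 13 tested, 11 had log2 fold changes below 0 (9 after quantile normalization of the libraries), with a median of -0.16, and none was called. KIF23, which bundles microtubules of the central spindle, was the best expressed and hardly differed, at 74.2, 88.0 and 78.2 against 71.7, 88.7 and 68.3 FPKM (log2 fold change -0.08, adjusted p = 0.780). At the ends of the range, KIF20B, a kinesin of cytokinesis, had -0.43 (adjusted p = 0.382) and KIF2A, a microtubule depolymerase, 0.01 (adjusted p = 0.983). With the replicate block 6 of the 13 passed an adjusted p of 0.025, all lower, beside 15.7% of all genes tested, and these were KIF4A, KIF11, KIF15, KIF18B, KIF20A and KIF20B. In bulk RNA, fewer cells in mitosis and less RNA per cell cannot be told apart.

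Among these mitotic genes, KIF4A and KIF20A, named after their values were seen, had groups that did not overlap. KIF4A, which organises the midzone of the spindle and condenses chromosomes, was at 52.8, 55.6 and 51.0 FPKM with the control shRNA and 39.2, 40.4 and 38.7 FPKM with the Ephexin1 shRNA (log2 fold change -0.43, SE 0.0928, adjusted p = 0.0389, or 0.00104 with the block). KIF20A, needed for cytokinesis, was at 54.6, 52.9 and 54.1 against 43.8, 44.7 and 45.5 FPKM (log2 fold change -0.27, SE 0.0889, adjusted p = 0.122, or 0.00494 with the block). Summed over the 13 genes, the level was 593 to 626 FPKM in shControl and 517 to 550 FPKM in shEphexin1, or 87.4% of shControl. Total FPKM over all genes was itself 561335 to 651441 in shControl and 516079 to 587222 in shEphexin1, lower in each numbered pair. The sums of gene families given here are not scaled to that total.

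The cytoplasmic dynein genes had log2 fold changes of both signs, 8 below 0 and 4 above 0 among 12 tested. DYNC1H1 (chr14:102430910-102522780, plus strand, GRCh37) encodes the heavy chain, which holds the motor. It was at 102, 94.0 and 98.4 FPKM with the control shRNA and 154, 131 and 158 FPKM with the Ephexin1 shRNA. All shEphexin1 libraries lay above all shControl libraries, and the level rose 1.50-fold (log2 fold change 0.59, SE 0.107, limma adjusted p = 0.0236, or 0.000654 with the block). Leaving out 1 library at a time gave adjusted p-values of 0.0151 to 0.128 and log2 fold changes of 0.53 to 0.67.

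Of the light chains that hang on the dynein tail, 3 were lower once the replicate block was fitted, as were 15.7% of all genes tested. DYNLL1, the most abundant dynein subunit, which also binds many other proteins, was at 280, 276 and 293 FPKM with the control shRNA and 239, 235 and 239 FPKM with the Ephexin1 shRNA (log2 fold change -0.25, SE 0.0857, adjusted p = 0.130, or 0.00397 with the block, and -0.04 after quantile normalization). Its close relative DYNLL2 was at 17.1, 17.8 and 20.2 against 13.1, 10.8 and 13.1 FPKM (log2 fold change -0.57, SE 0.131, adjusted p = 0.0438, or 0.00324 with the block). DYNLRB1, a roadblock light chain named after its values were seen, was at 140, 121 and 146 against 115, 89.0 and 90.4 FPKM (log2 fold change -0.48, adjusted p = 0.0821, or 0.00542 with the block). In none of these 3 genes did the groups overlap, which also held in the lower direction for 15.4% of all genes tested.

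None of the Tctex-type light chains and remaining dynein 1 subunits passed an adjusted p of 0.025 in either fit. The log2 fold changes were -0.22 for DYNLT1 and -0.37 for DYNLT3, and 0.04, -0.16 and 0.17 for the intermediate and light intermediate chains DYNC1I2, DYNC1LI1 and DYNC1LI2. Summed over 5 light chains of dynein 1, the level was 467 to 514 FPKM in shControl and 380 to 407 FPKM in shEphexin1, 80.0% of shControl. The ratio of DYNLL1 to DYNC1H1 was 2.74, 2.93 and 2.98 in shControl and 1.55, 1.79 and 1.51 in shEphexin1. This ratio restates the values of those 2 genes and is not a further test. DYNC2H1, the heavy chain of the dynein that works in cilia, had a log2 fold change of -0.17 (adjusted p = 0.679).

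**Figure D2:**
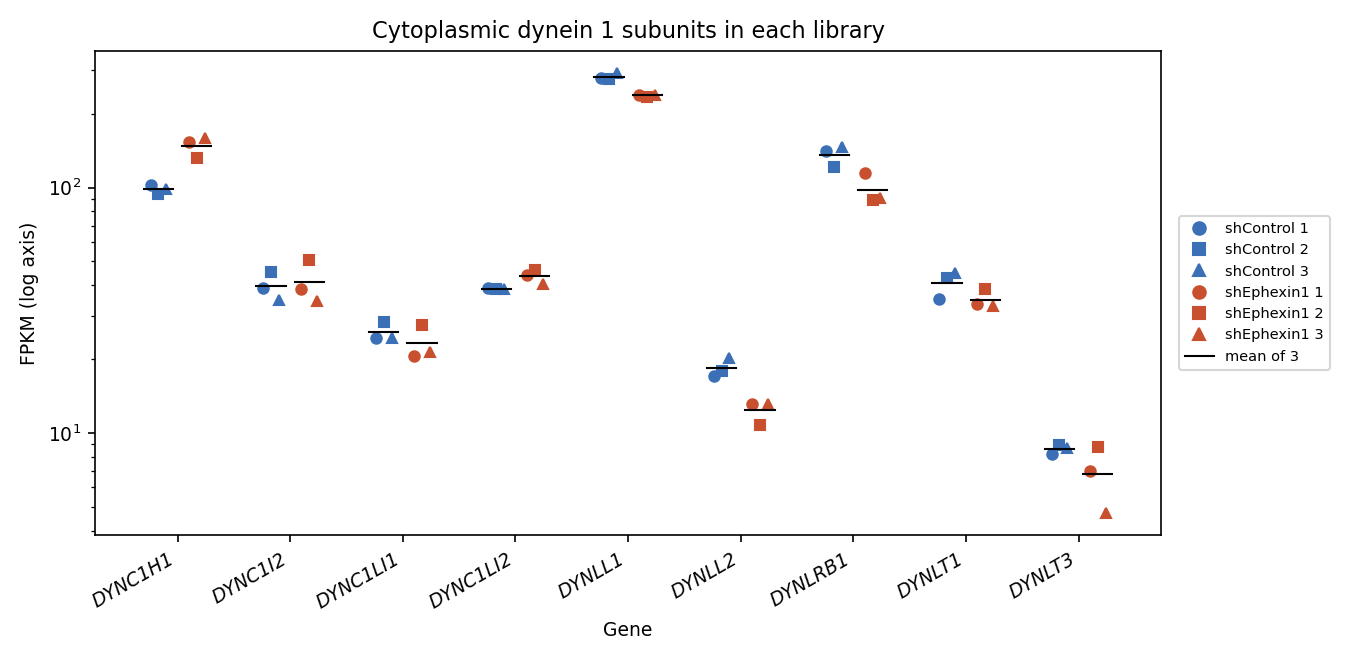
Level (FPKM, log axis) of 9 cytoplasmic dynein 1 genes in each library, with symbols for the replicate number, colours for the group and black lines for the mean of 3. DYNC1H1 is higher in shEphexin1 (131 to 158 against 94.0 to 102 FPKM), whereas DYNLL1, DYNLL2 and DYNLRB1 are lower without overlap.

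Tubulin genes were the most abundant of the set. Their last coding bases encode the acidic tail that motors and modifying enzymes read, and bases also differ elsewhere in the coding sequence. Whole coding sequences were 97.2% identical between TUBA1A and TUBA1B, and 58.4% of the windows of 50 coding bases in TUBA1A, 68.3% in TUBA1B and 57.0% in TUBA1C occurred in another alpha tubulin, so the split of reads among these 3 genes is uncertain.

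TUBA1B, the main alpha tubulin of dividing cells, was at 955, 780 and 1027 FPKM with the control shRNA and 636, 543 and 660 FPKM with the Ephexin1 shRNA, without overlap. Its level was 66.6% of shControl (log2 fold change -0.58, SE 0.137, limma adjusted p = 0.0492, or 0.000423 with the block). TUBA1C was at 434, 362 and 480 against 326, 285 and 345 FPKM (log2 fold change -0.41, adjusted p = 0.121, or 0.00111 with the block). TUBA1A was at 174, 147 and 189 against 155, 134 and 150 FPKM (log2 fold change -0.21, adjusted p = 0.372, or 0.0237 with the block). Replicate 2 was lowest for all 3 genes in both groups, and each numbered pair was lower in shEphexin1.

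Summing the alpha tubulins largely sets aside how reads were split among them. Those sums were 1566, 1292 and 1699.5 FPKM with the control shRNA and 1120, 964 and 1158 FPKM with the Ephexin1 shRNA, or 71.1% of shControl, without overlap. The low-level TUBA4A, TUBA3D and TUBA8 were at most 1.10 FPKM in every library, and TUBA8 had the highest log2 fold change of the alpha tubulins at 0.38 (adjusted p = 0.416). After quantile normalization the log2 fold changes of TUBA1A, TUBA1B and TUBA1C were nearer 0, at -0.04, -0.19 and -0.12.

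The beta tubulins showed a mixed picture. Their last 60 coding bases, stop codon included, are shown because they encode the tail and also show where reads cannot separate the isotypes. Bases outside the tail differ too, and whole coding sequences of TUBB and TUBB4B were 84.4% identical. They were read from GRCh37 at chr6:30692115-30692174 (plus strand, TUBB), chr9:140137949-140138008 (plus strand, TUBB4B), chr16:90002153-90002212 (plus strand, TUBB3), chr18:12326070-12326129 (plus strand, TUBB6), chr6:3154097-3154156 (minus strand, TUBB2A) and chr6:3224985-3225044 (minus strand, TUBB2B), and capitals mark bases that differ from TUBB after alignment.
TUBB: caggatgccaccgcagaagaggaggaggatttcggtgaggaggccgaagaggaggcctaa
TUBB4B: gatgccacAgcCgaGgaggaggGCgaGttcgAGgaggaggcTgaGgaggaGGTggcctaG
TUBB3: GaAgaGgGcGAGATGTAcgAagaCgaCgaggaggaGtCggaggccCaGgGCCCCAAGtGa
TUBB6: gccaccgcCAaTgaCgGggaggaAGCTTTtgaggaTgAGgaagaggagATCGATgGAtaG
TUBB2A: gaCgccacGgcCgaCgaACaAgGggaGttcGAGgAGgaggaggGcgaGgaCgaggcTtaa
TUBB2B: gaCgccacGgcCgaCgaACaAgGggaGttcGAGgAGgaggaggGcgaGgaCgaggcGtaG
TUBB2A and TUBB2B were 98.1% identical over their coding sequences, and 72.4% of their windows of 50 bases were shared, so reads between these genes may be split wrongly. TUBB and TUBB6 shared 0% and 1.55% of theirs with other beta tubulins.

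TUBB, the common beta tubulin, was at 849, 703 and 864 FPKM with the control shRNA and 771, 651 and 776 FPKM with the Ephexin1 shRNA, groups that overlapped. Its log2 fold change was -0.13 (SE 0.126, adjusted p = 0.584, or 0.0394 with the block) and 0.28 after quantile normalization, so its direction depended on the scaling. TUBB4B, the next most abundant, was at 758, 577 and 866 against 606, 451 and 687 FPKM (log2 fold change -0.34, adjusted p = 0.375, or 0.00152 with the block, and 0.05 after quantile normalization). TUBB3, the beta tubulin of neurons that many carcinomas also express, was at 217, 146 and 248 against 174, 116 and 189 FPKM (log2 fold change -0.34, adjusted p = 0.459, or 0.00142 with the block, and -0.17 after quantile normalization).

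TUBB6 and TUBB2B had the lowest log2 fold changes of the beta tubulins. TUBB6, an isotype of muscle and mesenchymal cells named after its values were seen, was at 268, 201 and 291 FPKM with the control shRNA and 170, 133 and 189 FPKM with the Ephexin1 shRNA. The groups did not overlap, and the log2 fold change was -0.63 (SE 0.182, adjusted p = 0.0885, or 0.000247 with the block). Its share of all beta tubulin FPKM was 12.2 to 12.7% in shControl and 9.72 to 10.1% in shEphexin1. The local level around TUBB6 was -0.49. With that level subtracted, TUBB6 stood at -0.14 (limma adjusted p = 0.755, or 0.0399 with the block). TUBB2B was at 5.60, 4.91 and 6.56 against 3.86, 2.91 and 4.14 FPKM (log2 fold change -0.64, SE 0.186, adjusted p = 0.0884, or 0.00451 with the block). TUBB2A, with which it shares most of its sequence, was at 16.3, 12.5 and 18.2 against 18.4, 11.1 and 20.1 FPKM (log2 fold change 0.05, adjusted p = 0.930).

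In the other direction, TUBB4A, a beta tubulin of brain and myelin-forming cells, was at 0.566, 0.345 and 0.709 FPKM with the control shRNA and 1.29, 0.696 and 1.06 FPKM with the Ephexin1 shRNA (log2 fold change 0.81, SE 0.316, adjusted p = 0.183, or 0.0346 with the block). Summed beta tubulin was 1647 to 2296 FPKM in shControl and 1369 to 1869 FPKM in shEphexin1, which overlapped. The ratio of summed alpha to summed beta tubulin was 0.740, 0.784 and 0.740 in shControl and 0.641, 0.704 and 0.620 in shEphexin1, lower in every shEphexin1 library than in any shControl library. An exact permutation test of this ratio gave p = 0.1, the smallest value possible here. TUBA1A, TUBA1B and TUBA1C lie together where the local level was -0.25 to -0.24, and its part in the ratio was not tested.

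Gamma tubulin, the nucleator, did not differ detectably. TUBG1 was at 44.7, 34.1 and 47.4 FPKM with the control shRNA and 45.2, 31.4 and 50.6 FPKM with the Ephexin1 shRNA, with a log2 fold change of -0.0025 (SE 0.207, adjusted p = 0.997) whose sign changed with the scaling. TUBG2 was at 4.68 to 6.43 and 5.13 to 8.49 FPKM (log2 fold change 0.36, adjusted p = 0.387). TUBD1, the delta tubulin of centrioles, was at 3.03 to 3.65 and 2.29 to 3.43 FPKM (log2 fold change -0.33, adjusted p = 0.356). Of the gamma tubulin ring proteins TUBGCP2 to TUBGCP6, left out by the symbol rule, none passed without the block, and with it TUBGCP2 (log2 fold change -0.26, adjusted p = 0.0102) and TUBGCP6 (0.37, adjusted p = 0.0180) did.

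Among proteins that bind the growing plus end, MAPRE2 fell by less than 2-fold. MAPRE2 encodes EB2, a relative of the plus-end tracking protein EB1. It was at 12.3, 13.7 and 12.7 FPKM with the control shRNA and 8.43, 8.11 and 8.52 FPKM with the Ephexin1 shRNA, well apart, and the log2 fold change was -0.62 (SE 0.110, limma adjusted p = 0.0211, or 0.00181 with the block). Leaving out 1 library at a time raised the adjusted p to 0.0312 to 0.113, which missed the threshold each time, with log2 fold changes of -0.65 to -0.58. MAPRE1, the gene of EB1 itself, was at 109, 110 and 107 against 89.2, 92.7 and 82.6 FPKM (log2 fold change -0.30, adjusted p = 0.1003, or 0.00370 with the block, and -0.16 after quantile normalization). MAPRE3 had a log2 fold change of 0.05 (adjusted p = 0.932).

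MAP1B, a stabiliser of microtubules in growing axons, was at 19.6, 24.3 and 18.3 FPKM with the control shRNA and 26.5, 28.7 and 26.0 FPKM with the Ephexin1 shRNA without overlap (log2 fold change 0.39, SE 0.134, adjusted p = 0.132, or 0.00622 with the block). STMN1, which encodes the tubulin-sequestering protein stathmin, was at 245, 236 and 252 against 209, 226 and 199 FPKM (log2 fold change -0.21, adjusted p = 0.238, or 0.0371 with the block, and 0.01 after quantile normalization). MAP4, the general microtubule-associated protein outside neurons, left out by the symbol rule, hardly differed at 50.8 to 52.8 and 48.9 to 52.7 FPKM (log2 fold change -0.02, adjusted p = 0.944), and neuronal MAP2, left out likewise, was at 0.487 to 1.04 and 0.962 to 1.47 FPKM (log2 fold change 0.71, adjusted p = 0.209).

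Many of the lower genes lay among neighbours that were also lower. For each gene a local level was taken from the other tested genes within 5 Mb on either side that averaged at least 1 FPKM. This level was the median of their log2 fold changes. The local level was -0.2 or lower around 18 of the 79 genes, of which 15 had log2 fold changes below 0, against 32 of the other 61. Of the 22 genes that were lower with the replicate block, 13 lay in such surroundings. The same counts were not made over all genes tested, so they do not show a trait of this set. Some of the 18 genes also share a window. DYNLL2 on 17q lay where the local median was -0.63 over 48 genes, TUBB6 and MAPRE2 on chromosome 18 where it was -0.49 over 26 and 22 genes, and KIF4A on X where it was -0.32. Around TUBA1A, TUBA1B and TUBA1C, which sit together on chromosome 12, it was -0.25 to -0.24, and around KIF3B, DYNLRB1 and MAPRE1 on chromosome 20 it was -0.23. What lowered these stretches was not tested. Among the genes higher with the block, DYNC1H1, KLC1 and KIF26A lie together on chromosome 14, each with a local median of 0.11 over 55 genes. Whether these genes changed together was not tested.

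After the local median was subtracted, DYNLL2 stood at 0.06 and TUBA1A at 0.04, both turned in sign, TUBB6 at -0.14, MAPRE2 at -0.13 and KIF4A at -0.11. KIF5C stood at -1.68 (limma adjusted p = 0.00191), the only one still past an adjusted p of 0.025, beside 1.94% of all genes tested (0.886% lower and 1.05% higher), and DYNC1H1 at 0.47 (adjusted p = 0.0615). With the replicate block and the subtraction together, an alternative added after the data were seen, 15 of 79 genes passed an adjusted p of 0.025 (8 lower and 7 higher), beside 18.5% of all genes tested (9.32% and 9.21%). Of the 29 genes past that threshold with the block, 12 were still past it in the same direction. They were KIF5C, TUBA1B, TUBB2B, TUBB3, TUBB4B and KIF20A among the lower genes, and DYNC1H1, KIF26A, KLC2, KIFC2, KIFC3 and MAP1B among the higher ones. The other 17 included KLC1, at 0.11 (limma adjusted p = 0.0837), and KIF11, at -0.04 (adjusted p = 0.436).

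**Figure D3:**
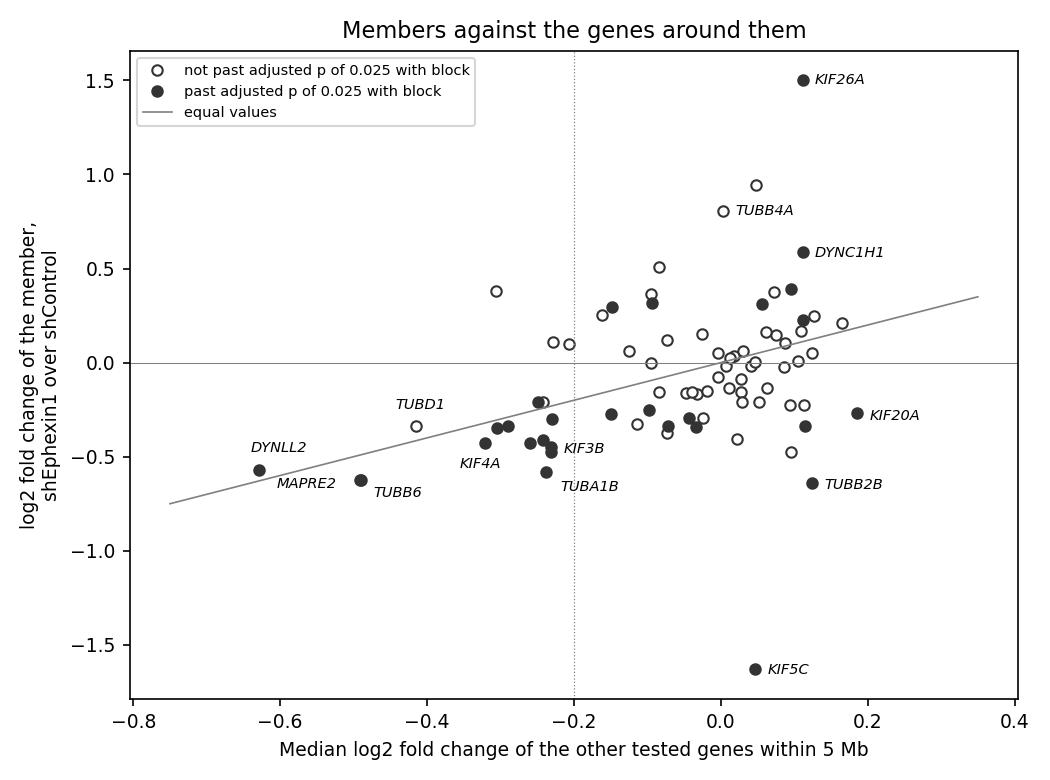
Log2 fold change of each tested member (y axis) against the median log2 fold change of its neighbours (x axis). Neighbours were the other tested genes within 5 Mb that averaged at least 1 FPKM. Filled points had an adjusted p of at most 0.025 with the replicate block. The diagonal marks equal values and the dotted line a local median of -0.2. DYNLL2, TUBB6, MAPRE2 and KIF4A sit near the diagonal, whereas KIF5C at -1.63 and KIF26A at 1.50 lie far from it.

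Few genes that act with the motors and tubulins were called. Over 6 lists of dynactin and dynein regulators, kinesin cargo adaptors, axonemal dyneins, tubulin folding and modifying enzymes, spindle and plus-end proteins, and the genes left out by the symbol rule, 91 of 101 genes were tested and 54 had log2 fold changes below 0. In these lists 1 gene was called, beside 1.89% of all genes tested. That gene was TTLL3, a ligase that adds glycine to tubulin tails, at 3.56, 2.82 and 3.92 FPKM with the control shRNA and 8.08, 6.33 and 8.17 FPKM with the Ephexin1 shRNA (log2 fold change 1.11, SE 0.177, limma adjusted p = 0.0158). TTLL3 overlaps the listed readthrough gene ARPC4-TTLL3 on the same strand, so its reads cannot be assigned with certainty, and the call was lost with each of 5 libraries left out. The lists called no lower gene, and with the block they called TTLL3 and the kinesin-1 adaptor gene FEZ1. Without a demand on the fold, HAUS1, a subunit of the augmin complex of the spindle, was lower (log2 fold change -0.69, adjusted p = 0.0218), with a local median of -0.49, and with the block 16 of the 91 were lower and 7 higher at an adjusted p of 0.025, beside 15.7% and 10.1% of all genes tested.

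FEZ1 links kinesin-1 to vesicle cargo. It was at 2.28, 1.16 and 1.85 FPKM with the control shRNA and 0.968, 0.404 and 0.406 FPKM with the Ephexin1 shRNA (log2 fold change -1.47, SE 0.374, limma adjusted p = 0.0600, or 0.00462 with the block). The groups did not overlap, though the highest shEphexin1 value lay close to the lowest shControl value. Among the cargo adaptors, 9 of 13 tested genes passed an adjusted p of 0.025 with the block, 5 lower and 4 higher, beside 25.7% of all genes tested. Of the dynein regulators, DCTN2, a dynactin subunit, was at 73.8, 74.8 and 83.5 against 57.0, 50.8 and 59.1 FPKM (log2 fold change -0.48, adjusted p = 0.0424), with a local median of -0.31. FEZ1, HAUS1 and DCTN2 were named after their values were seen.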

How the data were processed

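RNA sequencing measured messenger RNA in 6 libraries, grouped and numbered by their labels. Libraries were made from total RNA with a stranded kit. Per the submitters' processing notes, bcl2fastq 2.20, Bowtie, TopHat2 2.0.13 and Cufflinks 2.2.1 were used with hg19 (GRCh37), and the authors deposited 1 table of FPKM per gene. Read counts were not used here, so the depth of each value is unknown and counting intervals are not given. No column was left unassigned (0).

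The 16020 genes that reached 0.1 FPKM in 3 or more of the 6 libraries were tested by limma 3.58.1 in R 4.3.3 on log2(FPKM + 0.1) with a trended prior, without covariates, and adjusted by Benjamini-Hochberg over all of them. Fold changes are on that scale, which understates those of low genes. On simulated data 184 of 200 genes changed by a log2 fold of 2 were recovered with 1 false call, and smaller changes were not simulated. The simulated noise was independent between libraries and lacked the replicate 2 pattern, so these rates need not hold for the real libraries. Same-numbered libraries correlated at 0.215, 0.595 and 0.461 over 12658 genes in their deviations from group means. Differently numbered libraries correlated at -0.524 to 0.145, with the highest value between shControl 3 and shEphexin1 1. The numbers thus pair replicates 2 and 3 more clearly than replicate 1. A blocked fit is given beside results it changes, and its p-values rest on this pairing. Positions come from GENCODE release 44 on GRCh37, where 94.9% of tested genes matched. KIF5C coding bases follow its principal transcript.

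The members and gene lists were chosen with earlier results of these data known. Named were KIF5C, all called and all kinesin-1 members, the best expressed and the most extreme tested members of each role, and called genes of other lists. Others named in the text were chosen after their values were seen. The ending rule dropped KIFAP3, MAP2, MAP4, TUBBP5 and TUBGCP2 to TUBGCP6. These are described apart, although MAP2 and MAP4 had been planned as members. The end sequences of the alpha tubulins are not reported here.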

Additional observations from a re-analysis of the deposited data

How the results depend on the processing

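The KIF5C call held in all 19 refits, with log2 fold changes of -1.69 to -1.25. Of 79 members, 1 was called (0 up), and 2 were called, 1 of them up, with the replicate block, with the block and a GC correction, with a term for replicate 2, with replicates 1 and 3 alone, and with the block and local subtraction together (an alternative chosen after the data were seen); 3 passed without a fold threshold. Calls among the other lists numbered 0 with a pseudocount of 1 FPKM, 2 in those same 5 fits, and 0 to 2 with 1 library left out, against 1. Of 31 other named members, 20 kept their direction throughout and 11 did not. Quantile normalization gave KIF23 0.036, STMN1 0.0075, TUBB 0.28 and TUBG1 0.073 (log2). TUBG1 also turned to 0.033 with median centring, 0.017 with block and GC correction, and 0.056 with replicates 1 and 3, and KIF23 to 0.0021 with block and GC correction. Local subtraction, with or without the block, gave DYNLL2 0.057, KIF2A -0.095, TUBD1 0.080 and TUBG1 0.093. With 1 library left out, KIF13A ranged from -0.019 to 0.064, KIF2A from -0.14 to 0.16, KIF5B from -0.091 to 0.18, KLC3 from -0.41 to 0.091, KLC4 from -0.0099 to 0.31 and TUBG1 from -0.15 to 0.20. None of these members passed the threshold without the block, and the causes were not tested. The block, whose pairing is least clear for replicate 1, brought 26 further members to an adjusted p of 0.025 or less (29 against 3). Depth is unknown, so low values such as those of KIF26A carry an error that cannot be given.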
